A study of Mus musculus with 12 samples.

Results

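The forkhead transcription factor genes were examined through the open chromatin regions, or peaks, that lie nearest to them in stromal cells of mouse lymph nodes. Of 32 forkhead genes listed, 23 had at least 1 peak, and 129 of the 42424 distinct peaks of the ATAC-seq table belonged to them. A peak was given to the gene whose protein-coding transcription start site (TSS) lay nearest on GRCm38 with the GENCODE vM21 annotation, so a peak is named here by gene and by the distance of its centre from that TSS, and nearness does not show that the peak acts on the gene.

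ATAC-seq reads where a transposase can cut the genome and so measures accessibility, not transcription. The cells were CD45-CD24-CD31-Pdpn+ non-endothelial stromal cells, sorted from mesenteric lymph nodes (mLN), which drain the gut, or from peripheral lymph nodes (pLN). The labels of the pLN samples give their tissue as a skin-draining mesenteric node, and the samples were taken as skin-draining peripheral nodes from their titles. The mice were BALB/c and were housed specific pathogen-free (SPF, 7 to 12 weeks old) or germ-free (GF, 6 to 10 weeks old). Libraries numbered 3 for mLN-SPF, 3 for mLN-GF, 3 for pLN-SPF and 2 for pLN-GF, since the column named for another pLN-GF library holds the mean of the 5 other pLN columns and was not used. Per the study's methods, the BALB/c line bred under SPF conditions was CD90.1, though it is not said that these libraries came from it, and GF mice were derived by cesarean section at another centre. Housing therefore cannot be told apart from colony of origin. The labels do not say whether libraries came from separate animals, and p-values therefore measure only the spread between these libraries.

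Forkhead proteins share a winged-helix DNA-binding domain and recognise a short core that reads TGTTTAC, or a close relative of it, on one strand. FOXO proteins (Foxo1, Foxo3, Foxo6) carry signals from insulin and growth factor receptors, because AKT phosphorylates them and keeps them out of the nucleus. FOXP proteins (Foxp1, Foxp2, Foxp4) act mainly as repressors and form dimers, while FOXC proteins (Foxc1, Foxc2) act in mesenchyme and vessels during development. FOXA proteins can bind closed chromatin in endoderm, and Foxl1 marks mesenchyme beneath the gut epithelium.

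The sequences of a few peaks are given first, because they carry the largest location differences of the forkhead genes or hold a forkhead core. All are the plus strand of GRCm38, and capitals mark a match to the forkhead core TGTTTAC or to one of its variants (first TGTTTAT, next TATTTAC, last TGTTTGC) on either strand. The 123.3 kb upstream peak of Foxn3 (chr12:99686744-99686986), the forkhead peak most raised in mLN-SPF, held no match over its 243 bp. The 12 kb upstream peak of Foxi1 (chr11:34219975-34220256), the most lowered one, held 1 match over its 282 bp and had a GC content of 43.6%. Of Foxn2, the whole 110 bp intronic peak 26.1 kb into the gene (chr17:88466754-88466863) is shown. The last 3 stretches are the surroundings of a core in peaks lowered in mLN, 49.2 kb and 37.5 kb upstream of Foxq1 (chr13:31506938-31506968 and chr13:31518737-31518767) and 117.7 kb from Foxa2 (chr2:147928405-147928435).
Foxn3 123.3 kb upstream: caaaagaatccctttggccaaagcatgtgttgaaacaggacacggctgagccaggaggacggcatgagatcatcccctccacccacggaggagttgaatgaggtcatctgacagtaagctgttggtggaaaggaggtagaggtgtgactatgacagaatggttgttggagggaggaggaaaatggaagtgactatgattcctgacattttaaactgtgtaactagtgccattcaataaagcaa
Foxi1 12 kb upstream: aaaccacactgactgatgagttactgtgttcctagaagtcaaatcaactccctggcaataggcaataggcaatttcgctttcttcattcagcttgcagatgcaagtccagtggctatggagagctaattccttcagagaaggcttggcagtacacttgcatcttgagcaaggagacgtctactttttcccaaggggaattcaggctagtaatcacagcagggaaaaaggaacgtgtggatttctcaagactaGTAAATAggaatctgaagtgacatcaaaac
Foxn2 intron: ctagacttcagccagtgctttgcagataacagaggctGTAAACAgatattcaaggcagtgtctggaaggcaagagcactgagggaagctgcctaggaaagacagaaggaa
Foxq1 49.2 kb upstream: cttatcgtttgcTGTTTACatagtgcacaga
Foxq1 37.5 kb upstream: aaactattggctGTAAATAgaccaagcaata
Foxa2 117.7 kb downstream: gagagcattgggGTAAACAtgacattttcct
In the Foxi1 and Foxq1 37.5 kb peaks the core shown was TATTTAC on the minus strand, in the Foxn2 and Foxa2 peaks TGTTTAC on the minus strand, and in the Foxq1 49.2 kb peak TGTTTAC on the plus strand. Elsewhere the Foxa2 peak held another match, TGTTTGC on the plus strand. A match is a run of letters and not a bound site.

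Reads in peaks numbered 2886129 to 5278824 per mLN-SPF library, 3702387 to 6104601 per mLN-GF library, 3049830 to 10380493 per pLN-SPF library and 5302688 to 6804343 per pLN-GF library. Values are in RPKM, a read count divided by the length of the peak and by the size of the library. Defining promoters of other cells (Pecam1 and Cdh5 for blood endothelium, Ptprc and Cd3e for hematopoietic cells, Epcam for epithelium) had no peak, and neither did those of Pdpn, used in the sort, and Ccl19. Promoter peaks of 4 of 5 perivascular markers (all but Mcam) summed to 84.2 to 121 RPKM in mLN-SPF and 101 to 122 RPKM in mLN-GF, against 137 to 172 RPKM in pLN-SPF and 178 to 179 RPKM in pLN-GF. The promoter peak of Wt1, the only mesothelial marker of 3 with one, had 48.1 to 58.3 RPKM in mLN-SPF and 46.1 to 60.9 RPKM in mLN-GF, against 9.76 to 18.1 RPKM in pLN-SPF and 14.3 to 17.5 RPKM in pLN-GF. Promoter peaks of 7 of 9 fibroblastic markers summed to 410 to 468 RPKM in mLN-SPF and 312 to 408 RPKM in mLN-GF, against 352 to 395 RPKM in pLN-SPF and 298 to 333 RPKM in pLN-GF. Promoter peaks of 2 of 5 blood endothelial markers (Kdr, Tek) summed to 48.1 to 68.1 RPKM per library, those of 2 of 3 lymphatic markers (Prox1, Flt4) to 24.1 to 78.9 RPKM and that of Cd24a, the only one of 5 hematopoietic markers, to 27.5 to 45.5 RPKM, with no DAR. Sums of the perivascular markers (0 DARs in SPF and 1 in GF mice) and the Wt1 peak (a DAR in both) did not overlap between nodes in either housing, and sums of the fibroblastic markers (1 DAR in each) did not overlap in SPF mice, nor did those of the blood endothelial markers in GF mice (59.4 to 64.4 RPKM in mLN-GF, against 48.1 to 51.5 RPKM in pLN-GF). The part of these differences in the forkhead results was not tested. In such mixtures, fewer cells with an open site and a less open site in every cell cannot be told apart.

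The 129 forkhead peaks were 52 intergenic, 52 intronic, 22 promoter (a TSS within 1 kb), 2 coding-exon and 1 UTR peaks. Promoters made up 30.1% of all peaks. Foxp1 had the most peaks with 24, followed by Foxn3 with 16, Foxo1 with 12, Foxn2 with 11 and Foxo3 with 8. Foxa2, Foxp2 and Foxq1 had 6 each, Foxk1 and Foxl1 5 each and Foxp4 4, while 12 genes had 1 to 3. No peak was nearest to Foxa3, Foxb1, Foxd1, Foxd3, Foxh1, Foxl2, Foxm1, Foxn1 or Foxn4. The start of Foxa3 lay in a peak given to Sympk and that of Foxm1 in a peak given to Rhno1, so these starts were open although the rule gave them no peak. Some peaks, 10 in all, lay inside another gene only, such as Mipol1, Gmds and Gm20388. Mean accessibility ranged from 8.63 to 128 RPKM over the 129 peaks with a median of 24.7 RPKM, against a median of 27.0 RPKM over all peaks, and the median distance to the TSS was 33.4 kb, against 14.9 kb over all peaks.

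Location was compared first in SPF mice. A differentially accessible region (DAR) had an adjusted p under 0.05, by limma over all 42424 peaks, and at least a 2-fold change on the log2(RPKM + 1) scale, where a positive log2 fold change (log2FC, given ± its SE) means higher in mLN. In SPF mice 15 forkhead peaks (11.6%) were DARs, against 10.8% of all peaks. Of these, 6 were higher in mLN-SPF, where 6.49% of all peaks were higher, and 9 were lower, where 4.27% of all peaks were lower. The DARs belonged to Foxn3, Foxp1, Foxn2 and Foxo1 among the higher ones and to Foxi1, Foxd2, Foxq1, Foxp1, Foxo6, Foxk1 and Foxa2 among the lower ones. The count fell to 9 without mLN-SPF replicate 3 (4 higher, 5 lower), where 6% of all peaks were DARs. It fell to 8 without pLN-SPF replicate 2 (4 higher, 4 lower), where 5.4% of all peaks were. Of the 15 peaks, 8 stayed DARs under every alternative tried. The split was 10 higher and 6 lower without pLN-SPF replicate 3, where 11.4% of all peaks were DARs. It was 8 higher and 6 lower without the shallowest library of each node, mLN-SPF replicate 3 and pLN-SPF replicate 3, where 7.41% were. That setting was chosen after seeing the data. The median log2 fold change was -0.0603 over the forkhead peaks and 0.00435 over all peaks. SPF libraries of mLN and pLN did not overlap at 55 forkhead peaks (42.6%), 24 higher and 31 lower, against 33.1% of all peaks.

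**Figure D1:**
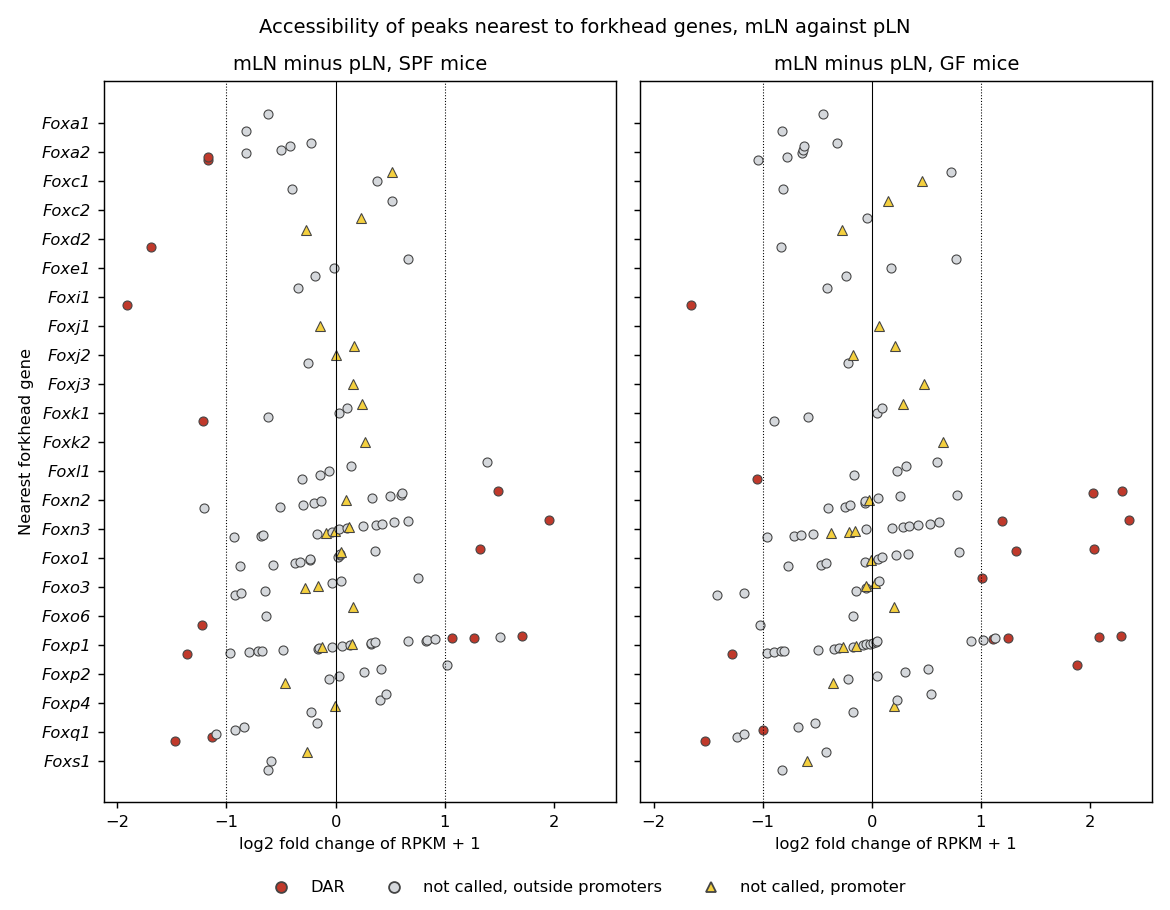
Log2 fold change (mLN minus pLN, on the log2(RPKM + 1) scale) of each of the 129 forkhead peaks, with one row per gene, in SPF mice and in GF mice; red marks DARs and triangles mark promoter peaks. The DARs number 15 in SPF and 17 in GF mice, and no triangle is red.

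The most raised forkhead peak in mLN-SPF lay 123.3 kb upstream of Foxn3, which encodes a repressor known from cell cycle checkpoints. This intergenic peak had 36.8, 33.3 and 71.1 RPKM in mLN-SPF, against 7.86, 12.7 and 12.1 RPKM in pLN-SPF (log2FC 1.96 ± 0.32, adjusted p = 0.003). GF libraries showed the same order, with 46.7, 30.1 and 53.2 RPKM in mLN-GF, against 8.44 and 6.49 RPKM in pLN-GF (log2FC 2.36 ± 0.36, adjusted p = 0.00108). No mLN library overlapped a pLN library, and the call survived every alternative tried.

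Foxp1, whose product represses transcription in many cell types, had 3 DARs higher in mLN-SPF and 1 lower. An intronic peak 11.7 kb upstream of the nearest Foxp1 TSS (chr6:99446845-99447244) had 20.9, 20.7 and 29.95 RPKM in mLN-SPF, against 4.77, 5.31 and 10.6 RPKM in pLN-SPF (log2FC 1.71 ± 0.33, adjusted p = 0.00617). Its values were 30.3, 24.5 and 34.1 RPKM in mLN-GF, against 5.59 and 6.82 RPKM in pLN-GF (log2FC 2.08 ± 0.37, adjusted p = 0.00251), and all 6 mLN libraries stood above all 5 pLN libraries. A second intronic peak, 30.4 kb downstream of a TSS (chr6:99217820-99218125), had 26.1, 27.7 and 24.2 RPKM in mLN-SPF, against 10.9, 6.94 and 13.9 RPKM in pLN-SPF (log2FC 1.26 ± 0.35, adjusted p = 0.0276). In GF mice it had 50.02, 24.9 and 24.1 RPKM in mLN-GF, against 7.31 and 4.22 RPKM in pLN-GF (log2FC 2.29 ± 0.39, adjusted p = 0.00192). Here too no libraries overlapped, but the SPF call was lost without any one of mLN-SPF replicates 1, 2 and 3 and pLN-SPF replicates 1 and 2 (adjusted p at most 0.118), whereas the GF call held throughout. The third, intergenic and 126.4 kb beyond the TSS (chr6:98901299-98901860), had 23.5, 20.6 and 30.7 RPKM in mLN-SPF, against 10.2, 8.88 and 15.7 RPKM in pLN-SPF (log2FC 1.06 ± 0.31, adjusted p = 0.0364), and 19.7, 12.2 and 23.98 RPKM in mLN-GF, against 16.9 and 17.9 RPKM in pLN-GF (log2FC 0.044 ± 0.35, adjusted p = 0.954). The SPF call of this peak was lost with a pseudocount of 3, under quantile normalisation and when only the groups compared were fitted. Only the SPF libraries separated at it, the difference between the 2 location effects was 1.02 ± 0.47 (SE) on the log2 scale with an adjusted p of 1, and its SPF call was lost without any one of mLN-SPF replicates 1 and 3, pLN-SPF replicates 1 and 2 and pLN-GF replicates 1 and 3 (adjusted p at most 0.137).

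The lowered Foxp1 peak was intronic, 155 bp wide and 70.7 kb from the TSS (chr6:99364587-99364741), with 12.6, 21.4 and 11.4 RPKM in mLN-SPF, against 34.5, 37.01 and 46.4 RPKM in pLN-SPF (log2FC -1.36 ± 0.27, adjusted p = 0.00622). It held under every alternative. In GF mice it had 20.4, 30.1 and 20.9 RPKM in mLN-GF, against 49.3 and 35.2 RPKM in pLN-GF (log2FC -0.81 ± 0.30, adjusted p = 0.0831), again without overlap but short of a DAR. Further Foxp1 peaks were DARs in GF mice only, and are given with the GF comparison. Raised and lowered peaks thus lay within the same gene body of 597.4 kb, and 4 of the 24 Foxp1 peaks had all mLN libraries above all pLN libraries while 3 had all below, beside 8.6% and 8.77% of all peaks.

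**Figure D2:**
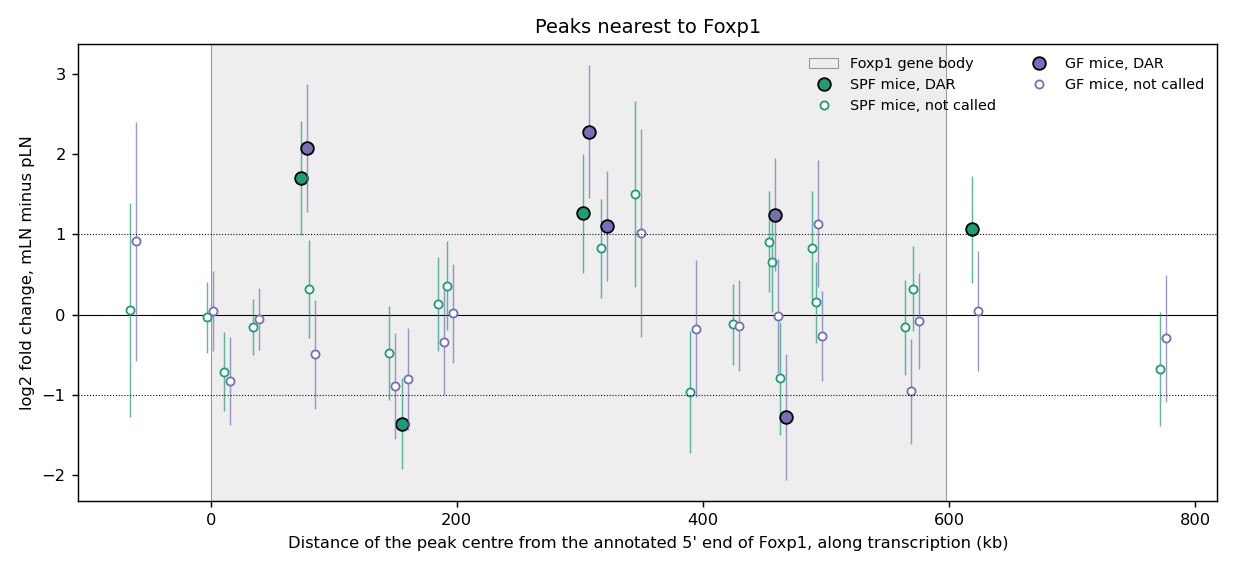
Log2 fold change (mLN minus pLN) with its 95% interval for the 24 Foxp1 peaks in SPF and GF mice, by distance in kb from the annotated 5′ end of the gene; the grey band is the gene body of 597.4 kb. Peaks above and below 0 lie intermingled along the gene.

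Foxn2 and Foxo1 each had 1 raised DAR in mLN-SPF. The Foxn2 peak was intergenic, 95.1 kb upstream (chr17:88345443-88345852), and had 35.6, 33.2 and 31.8 RPKM in mLN-SPF, against 11.9, 11.7 and 10.4 RPKM in pLN-SPF (log2FC 1.49 ± 0.27, adjusted p = 0.00445). It had 48.3, 25.02 and 45.1 RPKM in mLN-GF, against 7.28 and 6.65 RPKM in pLN-GF (log2FC 2.29 ± 0.30, adjusted p = 0.000455). All mLN libraries were above all pLN libraries. Foxo1, a FOXO factor needed in lymphocytes for homing and survival genes, had an intergenic DAR 70.0 kb upstream (chr3:52198102-52198558) with 24.3, 31.4 and 28.5 RPKM in mLN-SPF, against 10.7, 8.60 and 12.9 RPKM in pLN-SPF (log2FC 1.32 ± 0.26, adjusted p = 0.00627). The GF values were 40.4, 32.99 and 28.7 RPKM in mLN-GF, against 7.75 and 7.22 RPKM in pLN-GF (log2FC 2.03 ± 0.29, adjusted p = 0.000708), again with no overlap. Both peaks were DARs in both housings under every alternative.

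The 10 other Foxn2 peaks differed less between nodes in SPF mice, with log2 fold changes of -1.20 to 0.60. The lowest value, 136.5 kb upstream of Foxn2 (chr17:88304152-88304329), came from 9.84, 11.4 and 9.90 RPKM in mLN-SPF, against 12.3, 24.5 and 51.4 RPKM in pLN-SPF (log2FC -1.20 ± 0.41, adjusted p = 0.0638) and was log2FC -0.059 ± 0.46, adjusted p = 0.953 in GF mice. That SPF difference missed the threshold and passed it under quantile normalisation and without pLN-SPF replicate 1. The Foxn2 peak 69.9 kb upstream had log2FC 0.60 ± 0.22, adjusted p = 0.0858 in SPF and log2FC 0.78 ± 0.25, adjusted p = 0.0501 in GF mice, just outside the threshold. The other upstream Foxn2 peaks, at 184.2, 165.9, 122.1, 110.8 and 104.6 kb, and the coding-exon peak at 22.2 kb had adjusted p of 0.238 to 0.934 in both comparisons. The Foxn2 promoter was open in every library, at 45.03, 48.97 and 56.9 RPKM in mLN-SPF, against 49.6, 54.5 and 38.2 RPKM in pLN-SPF, and 43.9, 39.7 and 50.2 RPKM in mLN-GF, against 50.3 and 40.8 RPKM in pLN-GF (log2FC 0.092 ± 0.18, adjusted p = 0.772 in SPF mice).

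Lowered peaks in mLN-SPF were led by Foxi1, a gene known from the inner ear and the acid-secreting cells of the kidney. Its intergenic peak 12 kb upstream had 6.90, 16.97 and 8.75 RPKM in mLN-SPF, against 36.2, 45.2 and 41.7 RPKM in pLN-SPF (log2FC -1.91 ± 0.31, adjusted p = 0.00298). In GF mice it had 8.42, 10.5 and 7.01 RPKM in mLN-GF, against 29.8 and 28.5 RPKM in pLN-GF (log2FC -1.66 ± 0.35, adjusted p = 0.00648). Every mLN library lay below every pLN library. The GF call was lost without either pLN-GF library (adjusted p at most 0.0659). The other Foxi1 peak, 26.2 kb away, had log2FC -0.35 ± 0.23, adjusted p = 0.338 in SPF mice and was no DAR.

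Foxd2, expressed in mesenchyme of the developing kidney and head, had an intergenic peak 32.2 kb from its TSS (chr4:114876433-114876963) with 6.96, 4.16 and 11.3 RPKM in mLN-SPF, against 19.95, 23.4 and 32.01 RPKM in pLN-SPF (log2FC -1.69 ± 0.37, adjusted p = 0.00994). In GF mice the values were 6.96, 9.95 and 6.77 RPKM in mLN-GF, against 16.2 and 13.2 RPKM in pLN-GF (log2FC -0.83 ± 0.41, adjusted p = 0.198). Libraries did not overlap in either housing, and only the SPF difference was a DAR. The 2 location effects differed by -0.86 ± 0.55 (SE) on the log2 scale with an adjusted p of 1.

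Foxq1, a gene known from hair shafts and epithelia, had 6 peaks, all 37.2 to 229.4 kb from its TSS and all with log2 fold changes under 0 in both housings. Of all peaks outside promoters, 47.5% had values above 0 in SPF and 46.2% in GF mice. The peak 49.2 kb upstream (chr13:31506559-31507339) had 11.2, 23.3 and 13.5 RPKM in mLN-SPF, against 48.8, 43.4 and 40.6 RPKM in pLN-SPF (log2FC -1.47 ± 0.30, adjusted p = 0.00756). It had 17.6, 18.1 and 8.97 RPKM in mLN-GF, against 47.04 and 39.3 RPKM in pLN-GF (log2FC -1.53 ± 0.34, adjusted p = 0.00822). All mLN libraries were below all pLN libraries, and the GF call alone was lost without pLN-GF replicate 1 (adjusted p = 0.0943). A peak 204.4 kb upstream of Foxq1 (chr13:31351631-31351794) had 22.5, 16.8 and 8.60 RPKM in mLN-SPF, against 30.3, 35.6 and 35.9 RPKM in pLN-SPF (log2FC -1.13 ± 0.30, adjusted p = 0.0233). That call was lost without any one of mLN-SPF replicate 3 and pLN-SPF replicates 1, 2 and 3 (adjusted p at most 0.127). It was also lost by limma voom on recovered reads and when only the groups compared were fitted.

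Foxa2 also had 6 peaks with log2 fold changes under 0 in both housings, all 75.2 to 237.4 kb from the TSS. At 117.7 kb (chr2:147927846-147928619) the values were 9.05, 12.6 and 12.7 RPKM in mLN-SPF, against 31.2, 30.9 and 19.8 RPKM in pLN-SPF (log2FC -1.17 ± 0.33, adjusted p = 0.0318). At 229.0 kb (chr2:147816348-147817580) they were 8.36, 8.36 and 4.57 RPKM in mLN-SPF, against 15.6, 17.5 and 16.97 RPKM in pLN-SPF (log2FC -1.17 ± 0.33, adjusted p = 0.0318). SPF libraries separated at both peaks. The first call was lost without any one of mLN-SPF replicates 1 and 3 and pLN-SPF replicates 1 and 2 (adjusted p at most 0.121), and the second without any one of mLN-SPF replicate 3 and pLN-SPF replicates 1, 2 and 3 (adjusted p at most 0.144). The second call was also lost with a pseudocount of 3 and when only the groups compared were fitted. Both Foxa1 peaks, which lie 63.5 and 80.97 kb from the TSS, also had log2 fold changes under 0 in both housings, and neither was a DAR.

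Foxo6 and Foxk1 completed the lowered DARs of mLN-SPF. The Foxo6 peak 38.5 kb from the TSS (chr4:120248690-120249008) had 20.1, 9.81 and 6.63 RPKM in mLN-SPF, against 21.5, 31.97 and 28.7 RPKM in pLN-SPF (log2FC -1.22 ± 0.36, adjusted p = 0.0368), and its call was lost without any one of mLN-SPF replicates 2 and 3 and pLN-SPF replicates 1, 2 and 3 (adjusted p at most 0.195). Foxk1, which acts with Foxk2 in glucose metabolism and autophagy, had a peak 20.7 kb upstream (chr5:142380658-142380928) with 4.31, 5.43 and 7.80 RPKM in mLN-SPF, against 13.03, 19.6 and 12.1 RPKM in pLN-SPF (log2FC -1.22 ± 0.34, adjusted p = 0.0292), a call lost without any one of mLN-SPF replicate 1 and pLN-SPF replicates 1 and 2 (adjusted p at most 0.137). At both peaks every mLN library was below every pLN library in both housings. Both calls were also lost when only the groups compared were fitted.

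**Figure D3:**
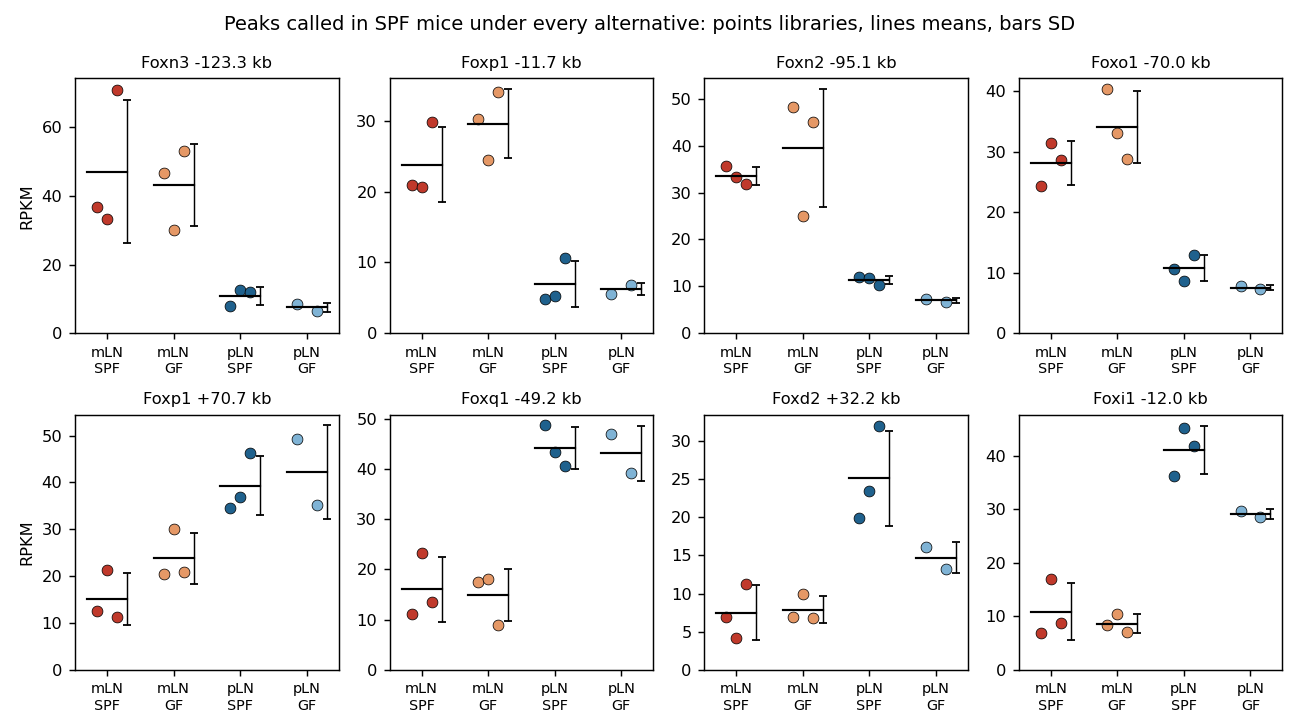
RPKM per library at the 8 forkhead peaks that stayed DARs between mLN-SPF and pLN-SPF under every alternative tried, with points for libraries of mLN-SPF, mLN-GF, pLN-SPF and pLN-GF, lines for group means and bars for 1 SD. The mLN points lie above the pLN points for Foxn3, Foxn2, Foxo1 and one Foxp1 peak, and below them for Foxi1, Foxd2, Foxq1 and the other Foxp1 peak.

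In GF mice, 17 forkhead peaks (13.2%) were DARs between mLN-GF and pLN-GF, against 13.2% of all peaks. Of these, 12 were higher in mLN-GF (8.55% of all peaks were) and 5 were lower (4.62% of all peaks were). The count was 11 without mLN-GF replicate 3 (8 higher, 3 lower), where 8.21% of all peaks were DARs. Leaving out either pLN-GF library left 1 in that group, which was assumed to vary like the other groups. It lowered both the forkhead count and that of all peaks further. Of the 17 peaks, 5 stayed DARs under every alternative, near Foxn3, Foxn2, Foxp1 (2 peaks) and Foxo1. GF libraries did not overlap at 72 forkhead peaks (55.8%), 29 higher and 43 lower, against 48.8% of all peaks. The median log2 fold change was -0.0595 over the forkhead peaks and -0.00541 over all peaks. Both housings called 7 peaks (5.43%, against 7.28% of all peaks), and neither among these nor among all peaks were any 2 calls opposite. The 7 were the Foxn3 123.3 kb, Foxn2 95.1 kb, Foxo1 70.0 kb, Foxp1 11.7 kb and Foxp1 30.4 kb peaks among the raised ones and the Foxi1 12 kb and Foxq1 49.2 kb peaks among the lowered ones.

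DARs in GF mice that were none in SPF mice numbered 10. The largest difference was at the Foxn2 intronic peak 26.1 kb downstream, with 35.98, 14.1 and 27.8 RPKM in mLN-GF, against 6.78 and 3.91 RPKM in pLN-GF (log2FC 2.03 ± 0.42, adjusted p = 0.00599). In SPF mice this peak had 15.9, 15.1 and 16.02 RPKM in mLN-SPF, against 12.1, 6.76 and 11.9 RPKM in pLN-SPF (log2FC 0.60 ± 0.38, adjusted p = 0.308). All mLN libraries were above all pLN libraries, but this 110 bp peak held only 3 to 17 reads per library, and its call was lost without pLN-GF replicate 3 (adjusted p = 0.0789). Foxp2, a repressor best known from speech circuits in the brain, had an intronic peak 170.2 kb into the gene (chr6:15366913-15367367) with 53.4, 25.6 and 45.8 RPKM in mLN-GF, against 12.3 and 8.20 RPKM in pLN-GF (log2FC 1.88 ± 0.42, adjusted p = 0.00861). In SPF mice it had 27.8, 20.6 and 30.2 RPKM in mLN-SPF, against 21.8, 11.4 and 7.18 RPKM in pLN-SPF (log2FC 1.02 ± 0.37, adjusted p = 0.0815), where libraries overlapped, and the GF call was lost without pLN-GF replicate 3 (adjusted p = 0.0947). The Foxo1 peak 108.7 kb downstream had 27.04, 25.3 and 22.2 RPKM in mLN-GF, against 8.57 and 10.1 RPKM in pLN-GF (log2FC 1.32 ± 0.42, adjusted p = 0.0456), a call lost without any one of mLN-GF replicates 1, 2 and 3, pLN-SPF replicate 1 and pLN-GF replicates 1 and 3 (adjusted p at most 0.239). For Foxn3, the peak 108.0 kb upstream had 32.7, 28.002 and 50.2 RPKM in mLN-GF, against 20.04 and 11.4 RPKM in pLN-GF (log2FC 1.19 ± 0.33, adjusted p = 0.0247), a call lost without mLN-GF replicate 3 or pLN-GF replicate 3 (adjusted p at most 0.251).

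Foxp1 accounted for 3 of these 10 peaks, all intronic. The peak 21.9 kb upstream had 48.1, 30.4 and 46.3 RPKM in mLN-GF, against 17.97 and 15.3 RPKM in pLN-GF (log2FC 1.25 ± 0.33, adjusted p = 0.0203). The peak 40.4 kb upstream had 43.3, 31.3 and 31.7 RPKM in mLN-GF, against 13.9 and 17.8 RPKM in pLN-GF (log2FC 1.11 ± 0.32, adjusted p = 0.0313). The peak 12.9 kb upstream was lower, with 14.7, 15.4 and 8.22 RPKM in mLN-GF, against 32.6 and 30.2 RPKM in pLN-GF (log2FC -1.28 ± 0.37, adjusted p = 0.0301). GF libraries separated at all 3 of them, and so did SPF libraries. The first pair of calls was lost without any one of mLN-GF replicates 1 and 3 and pLN-GF replicates 1 and 3 (adjusted p at most 0.143 and 0.226), and the last without mLN-GF replicate 3 or either pLN-GF library (adjusted p at most 0.188).

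The remaining 3 were near Foxo3, Foxl1 and Foxq1. Foxo3, a FOXO factor of stress resistance, had an intronic peak 2.3 kb upstream of the nearest TSS (chr10:42260506-42260866) with 39.5, 33.6 and 27.4 RPKM in mLN-GF, against 13.9 and 18.3 RPKM in pLN-GF (log2FC 1.01 ± 0.27, adjusted p = 0.0228), and every mLN library was above every pLN library. Foxl1 had a peak 64.7 kb downstream, inside an intron of the gene model Gm20388, with 16.3, 26.9 and 21.1 RPKM in mLN-GF, against 42.6 and 46.9 RPKM in pLN-GF (log2FC -1.06 ± 0.28, adjusted p = 0.0225). Foxq1 had a peak 37.5 kb upstream with 18.8, 20.4 and 20.6 RPKM in mLN-GF, against 42.8 and 39.004 RPKM in pLN-GF (log2FC -1.002 ± 0.28, adjusted p = 0.0248), below in every mLN library of both housings. With a pseudocount of 3 none of these calls held, and the Foxq1 call was also lost under median-of-ratios scaling and voom on recovered reads. Each call was lost without any one of 4 libraries: mLN-GF replicates 1 and 2 and pLN-GF replicates 1 and 3 for Foxo3 (adjusted p at most 0.204), and mLN-GF replicates 1 and 3 and pLN-GF replicates 1 and 3 for Foxl1 and Foxq1 (adjusted p at most 0.149 and 0.184).

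Averaged over both housings, 20 forkhead peaks (15.5%) were DARs, against 15.5% of all peaks, with 9 higher in mLN (9.43% of all peaks were) and 11 lower (6.05% of all peaks were). The count was 13 with a pseudocount of 3, where 12.9% of all peaks were DARs. That share was 14.9% without mLN-SPF replicate 1 and 14.2% without mLN-SPF replicate 3. The split moved with single libraries, to 10 higher and 6 lower without pLN-GF replicate 1, to 11 and 7 without mLN-SPF replicate 1 and to 8 and 7 without mLN-SPF replicate 3. The forkhead median was -0.0827 and that of all peaks 0.00506. All 6 mLN libraries lay above all 5 pLN libraries at 10 forkhead peaks and below them at 18, together 21.7%, against 17.4% of all peaks. The largest averaged values in each direction were 2.16 ± 0.24 (SE, adjusted p = 4.43e-05) for the Foxn3 123.3 kb peak and -1.79 ± 0.24 (SE, adjusted p = 0.000117) for the Foxi1 12 kb peak. Of the average DARs, 4 were DARs in neither housing alone, 12.4 kb upstream of Foxp1 (log2FC 1.26 ± 0.41, adjusted p = 0.0286), 114.0 kb downstream of Foxo3 (log2FC -1.02 ± 0.35, adjusted p = 0.0394), and 147.2 kb (log2FC -1.08 ± 0.35, adjusted p = 0.0314) and 229.7 kb (log2FC -1.14 ± 0.27, adjusted p = 0.00608) upstream of Foxq1. These 4 were chosen after their values were seen, except the last, whose call was lost without mLN-SPF replicate 3 (adjusted p at most 0.0378, under 2-fold). Over the 3 location fits, 29 peaks (22.5%) of 13 genes were DARs in at least 1, against 18.7% of all peaks, 14 higher and 15 lower in mLN, and 18 of them lay within 100 kb of the TSS.

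Promoter peaks were found for 17 of the 32 forkhead genes, and not for Foxa1, Foxa2, Foxe1, Foxi1, Foxl1 or Foxq1, which had other peaks. None of the 22 promoter peaks was a DAR in SPF mice, in GF mice or in their average, where 1.46%, 1.71% and 1.92% of all promoter peaks were. At an unadjusted p under 0.05 there were 2, 3 and 5, where 29.9%, 29.5% and 41.8% of all peaks were. The share of all promoter peaks was not counted. Outside promoters, 15 (14.0%), 17 (15.9%) and 20 (18.7%) of 107 forkhead peaks were DARs, against 14.8%, 18.1% and 21.3% of all such peaks. Log2 fold changes of promoter peaks ran from -0.463 to 0.517 in SPF and from -0.591 to 0.651 in GF mice, and the widest 95% bound was 0.978 in SPF mice, short of 2-fold, and 1.09 in GF mice.

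The Foxo3 promoter was the most accessible, with 98.2, 98.1 and 93.5 RPKM in mLN-SPF, against 119, 116 and 91.9 RPKM in pLN-SPF, and 112, 92.2 and 108 RPKM in mLN-GF, against 112 and 103 RPKM in pLN-GF. Foxo1 had 34.2, 32.7 and 33.99 RPKM in mLN-SPF, against 32.3, 31.9 and 33.3 RPKM in pLN-SPF, and 31.4, 27.2 and 24.3 RPKM in mLN-GF, against 27.8 and 27.6 RPKM in pLN-GF. Libraries of the nodes overlapped at both. Foxk2 had 50.6, 50.4 and 79.3 RPKM in mLN-GF, against 32.9 and 41.7 RPKM in pLN-GF (log2FC 0.65 ± 0.21, adjusted p = 0.0456), the one promoter past the adjusted p in a single housing, under 2-fold. In the average of both housings, 4 promoters had an adjusted p under 0.05 and less than 2-fold differences, namely Foxc1 (log2FC 0.49 ± 0.16, adjusted p = 0.0331), Foxk2 (log2FC 0.46 ± 0.14, adjusted p = 0.0203), Foxp2 (log2FC -0.41 ± 0.15, adjusted p = 0.0459) and Foxs1 (log2FC -0.42 ± 0.15, adjusted p = 0.0429). Foxs1, a gene of pericytes and neural crest in mice, had 3 peaks with log2 fold changes under 0 in both housings, from -0.712 to -0.424 in the average. All peaks of Foxa1, Foxa2, Foxd2, Foxi1 and Foxq1 were likewise under 0 in both housings. The 1 peak of Foxj3 and the 1 peak of Foxk2 were above 0 in both. Of all peaks outside promoters, 47.5% were above 0 in SPF and 46.2% in GF mice, and of all promoter peaks 57.1% and 57.3%. These genes were picked by sign after their values were seen, and Foxa1, Foxd2 and Foxi1 had only 2 peaks each. Promoter means of Foxc1 were 52.03 ± 12.4 RPKM in mLN-SPF, 46.1 ± 9.66 RPKM in mLN-GF, 35.5 ± 3.67 RPKM in pLN-SPF and 33.1 ± 6.32 RPKM in pLN-GF (SD, n = 3, 3, 3 and 2). Those of Foxc2 were 25.6 ± 8.03 RPKM in mLN-SPF, 18.3 ± 3.50 RPKM in mLN-GF, 21.7 ± 6.93 RPKM in pLN-SPF and 16.7 ± 5.73 RPKM in pLN-GF (SD, n = 3, 3, 3 and 2), with node differences inside the spread of the libraries.

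**Figure D4:**
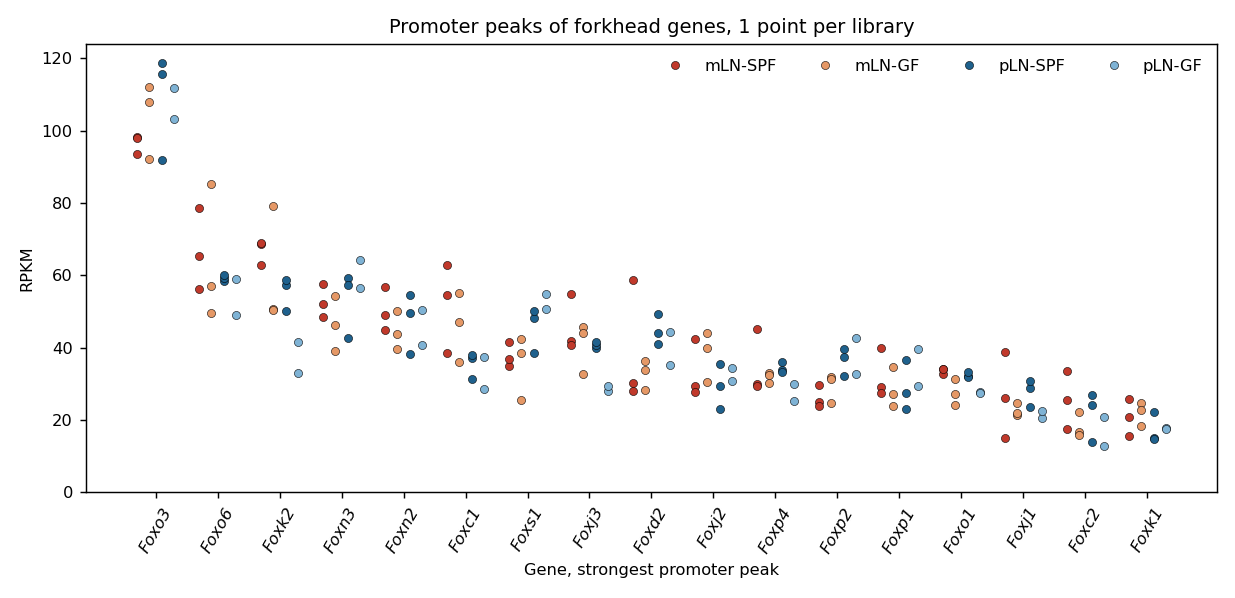
RPKM per library at the strongest promoter peak of the 17 forkhead genes with one, in mLN-SPF, mLN-GF, pLN-SPF and pLN-GF; each point is a library. Mean levels over all libraries run from 19.6 RPKM at Foxk1 to 104.0 RPKM at Foxo3, and none of these peaks was a DAR.

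By strongest promoter peak and mean over 11 libraries, Foxo3 (104.0 RPKM) was followed by Foxo6 (61.6), Foxk2 (56.5), Foxn3 (52.6), Foxn2 (47.1), Foxc1 (42.4), Foxs1 (42.0) and Foxj3 (40). Foxd2 (39.0), Foxj2 (33.4), Foxp4 (32.6), Foxp2 (32), Foxp1 (30.8) and Foxo1 (30.6) came next. Foxj1 (25.0), Foxc2 (20.9) and Foxk1 (19.6) were lowest. The ranges over 11 libraries overlapped in 15 of the 16 neighbouring pairs of this order, and only Foxo3 stood clear of the next gene.

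Housing was compared within each node, and these comparisons share their libraries with the location comparisons above. No forkhead peak was a DAR between mLN-SPF and mLN-GF, where 0.00236% of all peaks were. Between pLN-SPF and pLN-GF there was also none, where 0.00707% of all peaks were, and limma on recovered reads with voom called 1 forkhead peak there (0.12% of all peaks by voom) and none in mLN. At an unadjusted p under 0.05, 13 forkhead peaks (10.1%, against 8.11% of all) differed in mLN and 4 (3.1%, against 6.21% of all) in pLN by the log2 RPKM fit. Averaged over location there was none, where 0.066% of all peaks were DARs. That average had 13 at an unadjusted p under 0.05 (10.1%, against 11.2% of all) and 1 by voom (0.372% of all peaks). The lowest adjusted p was 0.482 in mLN, 0.3 in pLN and 0.111 in the average.

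The forkhead peak nearest to a housing difference was again in Foxp1, in an intron 19.7 kb upstream of the nearest TSS (chr6:99063814-99064418). It had 9.15, 11.8 and 12.97 RPKM in pLN-SPF, against 36.7 and 25.9 RPKM in pLN-GF (log2FC -1.38 ± 0.33, adjusted p = 0.3), and 20.9, 12.5 and 23.3 RPKM in mLN-SPF, against 29.7, 23.6 and 39.8 RPKM in mLN-GF (log2FC -0.70 ± 0.30, adjusted p = 0.59). Averaged over location it reached log2FC -1.04 ± 0.22, adjusted p = 0.111. SPF libraries were lower than GF libraries without overlap in pLN, and voom called this peak in pLN and in the average. The next lowest p in pLN belonged to the Foxp1 peak 72.1 kb downstream (log2FC -1.16 ± 0.31, adjusted p = 0.38) and the Foxk2 promoter (log2FC 0.57 ± 0.21, adjusted p = 0.675). In mLN the lowest p belonged to peaks 21.9 kb upstream of Foxp1 (log2FC -0.92 ± 0.29, adjusted p = 0.482), 108.0 kb upstream of Foxn3 (log2FC -0.83 ± 0.29, adjusted p = 0.518) and 229.0 kb from Foxa2 (log2FC -0.92 ± 0.33, adjusted p = 0.524). None of these 5 passed the threshold.

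Whether location effects differed by housing was tested as an interaction, the SPF location effect minus the GF one. No forkhead peak passed, and 0% of all peaks did. At an unadjusted p under 0.05 there were 3 (2.33%, against 3.5% of all), the Foxn2 26.1 kb peak (log2FC -1.43 ± 0.57, adjusted p = 1), the Foxo1 108.7 kb peak (log2FC -1.30 ± 0.56, adjusted p = 1) and the Foxp1 126.4 kb peak, and voom called none. The median 95% half-width of an interaction was 0.88 on the log2 scale, against 0.587 for the SPF and 0.656 for the GF location effect, so peaks called in 1 housing are not shown to differ between housings.

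**Figure D5:**
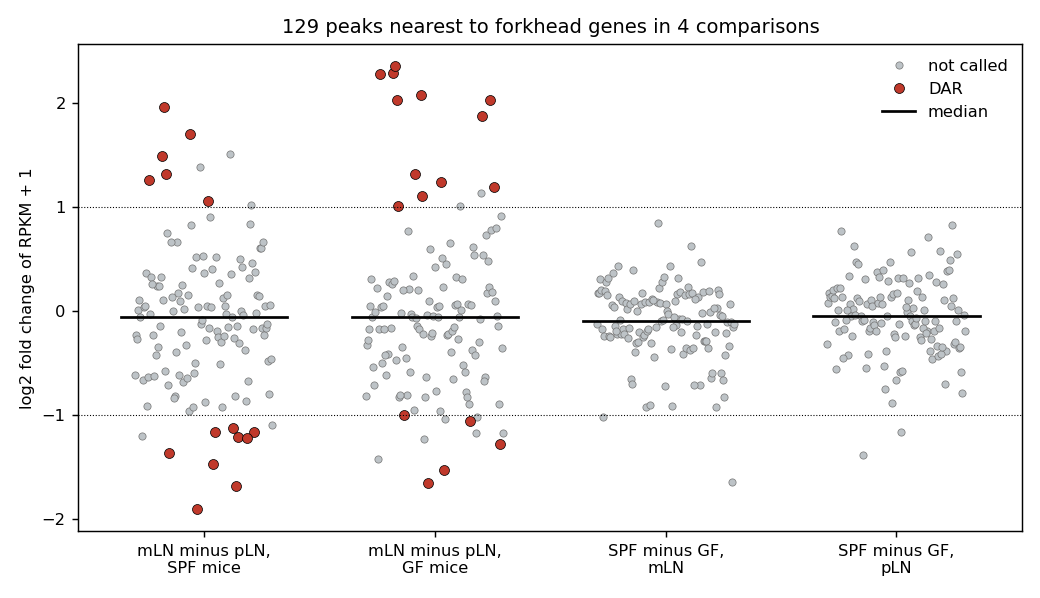
Log2 fold changes of the 129 forkhead peaks in the location comparisons (mLN minus pLN, in SPF and in GF mice) and the housing comparisons (SPF minus GF, in mLN and in pLN), each point a peak, with the median as a line. Medians lie between -0.0956 and -0.0475, and the location comparisons spread wider than the housing ones.

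The forkhead core itself was counted in the central 300 bp of each peak on both strands. A match to any of the 4 cores named with the sequences lay in 32 of 129 forkhead peaks (24.8%, exact 95% interval 17.6 to 33.2%), against 15.7% of all peaks on named chromosomes. Outside promoters the shares were 25.2% and 19.6%. Singly, TGTTTAC lay in 8 forkhead peaks (6.2%, against 3.78% of all), TGTTTAT in 11 (8.53%, against 5.28%), TATTTAC in 3 (2.33%, against 2.63%) and TGTTTGC in 13 (10.1%, against 5.27%). The shorter alternative core GACGC, bound by some FOXN-class proteins, lay in 33 (25.6%, against 24.3%). Of the 29 location DARs, 7 held a match in this window (24.1%), 2 of the 14 higher and 5 of the 15 lower ones. The match printed for the Foxa2 117.7 kb peak lies outside the window, so that peak is not among the 7. In peaks narrower than 300 bp the window reaches past the peak. In a central window of 200 bp, any core lay in 24 forkhead peaks (18.6%, against 10.7% of all), TATTTAC in 0 (against 1.68%) and GACGC in 24 (18.6%, against 18.0%). These shares are descriptions and not a test. The interval covers counting error only and treats peaks as independent, although many share a gene.

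The wider FOXO pathway was read from a list of 30 genes, 29 of which had peaks, 160 in all. In SPF mice 19 of these peaks (11.9%) were DARs, 9 higher and 10 lower in mLN-SPF, and in GF mice 22 (13.8%), 14 higher and 8 lower in mLN-GF, beside the 10.8% and 13.2% of all peaks given above. No peak of the list was a DAR by housing or interaction. Of its 160 peaks, 13 in mLN, 7 in pLN and 2 in the interaction had an unadjusted p under 0.05. Of all peaks, 8.11%, 6.21% and 3.5% had one. The median log2 fold change of the list was -0.0757 in SPF and -0.171 in GF mice. The 14 signalling genes upstream of FOXO (receptors, PI3K and AKT) had 7 higher and 5 lower DARs among 101 peaks in SPF mice, and the 16 known target genes 2 higher and 5 lower among 59 peaks. In both groups of genes 11.9% of the peaks were DARs, near the share of all peaks, of which 6.49% were higher and 4.27% lower.

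Among signalling genes, Pik3ca, the catalytic PI3K subunit, had a coding-exon peak 18.2 kb into the gene (chr3:32454355-32454844) with 34.1, 24.4 and 40.3 RPKM in mLN-SPF, against 7.01, 8.67 and 8.67 RPKM in pLN-SPF (log2FC 1.87 ± 0.29, adjusted p = 0.00246). Irs2, an adaptor of the insulin receptor, had raised peaks 27.4 kb (log2FC 1.72 ± 0.30, adjusted p = 0.004) and 102 kb (log2FC 1.72 ± 0.33, adjusted p = 0.00553) downstream. Pik3r1, the regulatory PI3K subunit, had a lowered peak 79.6 kb away (log2FC -2.55 ± 0.47, adjusted p = 0.00466). SPF libraries of the nodes did not overlap at any peak named in this paragraph, beside 33.1% of all peaks without overlap. The peaks were picked by their adjusted p in the same SPF libraries, so this separation adds no support. Among targets, Cdkn1b, a cell cycle inhibitor, had a raised peak 25.7 kb away (log2FC 1.66 ± 0.28, adjusted p = 0.0031), while Gadd45a, a stress gene, and Ccng2, a cyclin of arrested cells, had lowered ones at 103.7 kb (log2FC -1.65 ± 0.26, adjusted p = 0.00261) and 94.0 kb (log2FC -1.79 ± 0.39, adjusted p = 0.0102). In GF mice the Gadd45a peak was no DAR (log2FC -0.52 ± 0.29, adjusted p = 0.262), while the other peaks of this paragraph were DARs in the same direction. The peaks named for Pik3ca and Pik3r1 thus changed in opposite directions.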

How the data were processed

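ATAC-seq libraries of sorted lymph node stromal cells (50 bp single-end reads) were aligned by the authors to GRCm38 (mm10) with STAR 2.5.3a, cleared of duplicates with Picard and called for peaks with MACS2, and peaks were merged over all replicates. The deposited values are RPKM per merged peak, with DESeq2 1.22 used by the authors for scaling, and no shift of reads for the transposase was stated in the sources used here. Columns of the authors' own fold changes and p-values were not used, and neither were the table's gene names. Of the per-sample columns, 1 belongs to no library.

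Of 42434 rows, 10 repeats were dropped. Peaks were reassigned to genes by the rule given in the text. limma 3.58.1 (R 4.3.3) was fitted to log2(RPKM + 1) of 11 libraries with 4 group means, a variance trend and no filter, and p-values were adjusted by Benjamini-Hochberg over all 42424 peaks in each comparison. Fold changes on this scale understate those of low peaks. RPKM times peak width gave whole reads in all values (100%, tolerance 0.02), and these reads entered limma voom as an alternative. The fit was tested on simulated data. Named were the location DARs, the 5 largest per direction in the average, the strongest promoter peak per gene, all Foxn2 peaks, the 3 lowest p where no DAR was found and up to 4 DARs per direction of the FOXO list, of which some are not reported here. Members and lists were chosen with earlier results of these data known. Sequences come from the GRCm38.p6 RefSeq assembly through samtools 1.23.1, and 42342 peaks lie on named chromosomes. Alternatives covered pseudocount, low-value filter, scaling, block, variance trend, samples fitted, fold threshold, distance and each library left out. The fold threshold and distance settings kept the main fit and changed only what was counted. They were not followed peak by peak, so a peak that stayed a DAR did so under the refitted alternatives.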

Additional observations from a re-analysis of the deposited data

Results flagged for a closer look

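At 1 of the 129 forkhead peaks the libraries separated in opposite directions in the housings. The share of all peaks that did so was not counted, so 1 such peak is not shown to be unusual. In either direction, 33.1% of all peaks separated in SPF and 48.8% in GF libraries. This intronic Foxp1 peak, 78.2 kb downstream of the nearest TSS, had 22.3, 20.7 and 20.03 RPKM in mLN-SPF, against 19.4, 11.7 and 20.004 RPKM in pLN-SPF. The GF libraries had 21.3, 20.7 and 21.6 RPKM in mLN-GF, against 23.2 and 21.8 RPKM in pLN-GF, so that mLN was above pLN in every SPF library and below it in every GF library. The location effect was small in SPF mice (log2FC 0.32 ± 0.25, adjusted p = 0.416) and in GF mice (log2FC -0.081 ± 0.28, adjusted p = 0.886), and the test of their difference did not pass (log2FC 0.40 ± 0.37, adjusted p = 1). No other forkhead result was picked out in this way, and groups of 2 or 3 libraries were too small to test for an outlying one.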

How the results depend on the processing

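Of the location DARs followed under the alternatives, 0 turned round, and uncalled peaks were not checked for a turn. Of the peak values and motif shares recomputed, 2182 were unchanged, 95 lost a call, 4 gained one and 15 moved without a test verdict. The DAR counts are outside this tally. Unchanged means that a called peak stayed called or that an uncalled one moved by less than its SE. The motif shares of the shorter window are counted among the unchanged values. Leaving out one library gave 8 to 22 location DARs in SPF mice (main value 15), 6 to 19 in GF mice (17) and 15 to 24 in the average of both housings (20), and 0 to 0 for housing in mLN, housing in pLN, their average and the interaction. In SPF mice the fits without one library called 5.4% to 14% of all peaks. The other alternatives gave 10 to 20, 13 to 23 and 13 to 51 location DARs. In the average, a pseudocount of 3 gave 13 (12.9% of all peaks were DARs) and dropping the fold threshold gave 51 (31.4% of all peaks). With voom on recovered reads, housing gave 1 DAR in pLN and 1 in the average, the same Foxp1 peak 19.7 kb upstream (0.12% and 0.372% of all peaks were DARs). Location by voom gave 18 (9 higher, 9 lower) in SPF and 20 in GF mice, beside 12.8% and 15.7% of all peaks. The cause of these shifts was not tested, except that the count of 51 follows from the dropped threshold itself. Without the 2 shallow SPF libraries the counts were 14, 19 and 18, beside 7.41%, 15.6% and 15% of all peaks. With distance taken from the peak centre they were 15, 17 and 20. Both settings were chosen after seeing the data.

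With the replicate block the counts were 19 in SPF, 21 in GF and 24 in the average, and 0 for the other comparisons. Of all peaks, 11.9%, 17.3% and 17.2% were location DARs with the block. The numbers share no animal or batch in the labels. Deviations of same-numbered libraries correlated at r of -0.152 to 0.271, against -0.303 to 0.21 for different numbers. These overlapping ranges do not exclude a pairing, and the numbers were not taken as one in the main fit. Those numbered 2 correlated at 0.224 (mLN-SPF with mLN-GF), 0.271 (mLN-SPF with pLN-SPF) and 0.196 (mLN-GF with pLN-SPF). For those numbered 3 the same pairs of groups gave 0.157, 0.229 and -0.0137. Whether same-numbered libraries share a batch was not tested. Depth limits the narrow peaks most, and with 2 or 3 libraries a group a location effect in SPF mice had a median 95% half-width of 0.587 on the log2 scale.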
